A study of Mus musculus with 4 samples.

Results

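Genes of the TGF-beta and BMP pathway were followed in control and Rbpj-deficient dendritic cells grown from mouse bone marrow. Rbpj encodes the transcription factor that carries Notch signals to target genes. The 49 members were listed by symbol, and each had a probe on the array that matched by RefSeq accession, among 32496 genes and probe targets in all. Where a member had several probes, its brightest one over the 4 arrays stood for it. Marrow cells of female C57BL/6 mice aged 8 weeks were cultured for 6 days in GM-CSF at 20 ng/mL, and CD11c+ cells were isolated. The control cells (RFF) carried Rbpj fl/fl alleles alone, and the Rbpj-deficient cells (RFF11) carried the same floxed alleles together with CD11c-cre, a recombinase driven by the promoter of Itgax, the gene for CD11c. Each group had 2 one-colour arrays, with RNA pooled from 4 mice per genotype. No array held cells with the cre and intact Rbpj, so the effects of the cre and of the fall in Rbpj cannot be told apart. The labels do not say whether a genotype's arrays hold RNA of separate pools, and p-values therefore reflect array-to-array spread alone, possibly of technical origin.

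Ligands of this family are secreted as dimers that join a type I and a type II receptor kinase. TGF-beta itself leaves the cell in a latent form, held by latency proteins, and is released later, while BMPs and activins are restrained by secreted antagonists such as noggin and follistatin. The activated receptors phosphorylate Smad proteins, which enter the nucleus with Smad4. There they switch on genes that include the Id factors and the inhibitory Smads. In dendritic cells and Langerhans cells TGF-beta is known as a signal for differentiation and for restraint of immune responses.

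Levels are given as log2 signal minus the 75th percentile of the array. A spot was measured where the scanner software marked it well above background, which held for 55.2% to 58.4% of the spots for genes on an array. Rbpj read 2.69 and 2.61 in control and 1.37 and 1.44 in Rbpj-deficient cells. Its log2 difference was -1.25 (SE 0.06, limma adjusted p = 0.0278). The groups lay apart, as their labels say. Itgax read 6.69 and 6.63 in control and 6.65 and 6.45 in Rbpj-deficient cells. All 6 dendritic cell markers (Itgax, H2-Ab1, H2-Eb1, Cd74, Flt3 and Ciita) were measured on every array. So were all 5 macrophage markers, with Csf1r at a mean of 7.27 in control and 7.31 in Rbpj-deficient cells. Of the 6, 3 lay above and 3 below 0, and none passed. Flt3 (0.38, limma adjusted p = 0.0640) and Ciita (0.41, limma adjusted p = 0.0890) were higher and Cd74 (-0.10) lower, with the groups apart.

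Tgfb3 and Id1 rose and Tgfbr3 fell in Rbpj-deficient cells, while the other members tested did not pass. Testing required the probe of a gene to be measured on each array of 1 genotype or more. That held for 35 of the 49 members, all of them measured on all 4 arrays, and not for 14 members, of which 12 were measured on no array. Those 14 read between -8.18 and -4.92, while the lowest signal well above background was -5.95 to -5.50, depending on the array. In limma, with p-values adjusted by Benjamini-Hochberg across 17972 genes and a threshold of 0.05, 2 members rose, 1 fell and 32 did not pass. Over all genes tested 1.88% passed, with 1.04% higher and 0.84% lower. The median log2 difference of the 35 members was -0.03, beside -0.01 over all genes tested. Both genotypes lay apart, with no overlap between their arrays, for 26 of the 35 members, of which 11 were higher and 15 lower in Rbpj-deficient cells. The same held for 59.1% of all genes tested. An unadjusted p under 0.05 was found for 16 of the 35 members and for 24.1% of all genes tested. A log2 difference beyond 0.3 in either direction was found for 14 of the 35 members and for 19.1% of all genes tested. Leaving out any 1 of the 4 arrays ended the calls of Tgfb3, Id1, Tgfbr3 and Rbpj. The differences then ran from 1.30 to 1.58 for Tgfb3, from 1.39 to 1.61 for Id1, from -0.61 to -0.53 for Tgfbr3 and from -1.29 to -1.21 for Rbpj. The counts also moved with the settings. With no filter on dim probes 0 members and 0 of all genes passed, and the same held with the replicate number as a block. With normexp background correction 9 members passed, beside 4.93% of all genes tested. With a variance prior that followed the signal and was robust to outlying genes 12 passed, beside 8.61%. Among genes measured on all 4 arrays 5 passed, beside 2.76%. Under median scaling 3 passed, beside 2.45%, with Nog in place of Tgfbr3. RNA was measured on whole populations of CD11c+ cells, so a smaller share of cells that express a gene and less RNA per cell cannot be told apart.

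**Figure D1:**
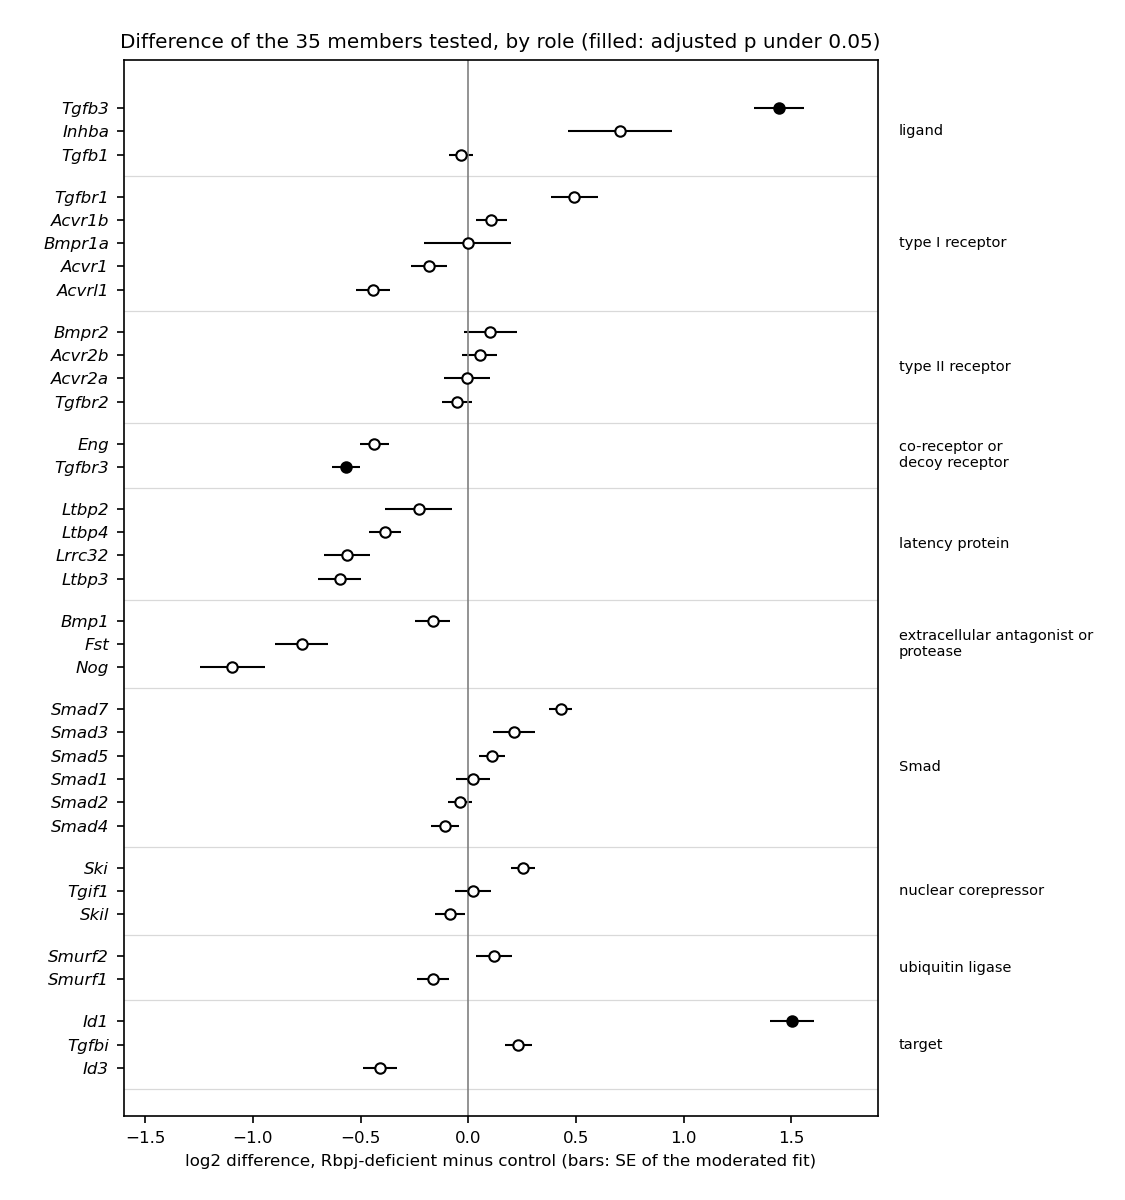
Log2 difference between Rbpj-deficient and control cells for the 35 members tested, grouped by role, with the SE of the moderated fit as bars. Filled points mark the 3 members with an adjusted p under 0.05. Tgfb3 and Id1 stand at 1.44 and 1.50, while the latency proteins, co-receptors and antagonists all lie below 0. Those roles hold 2 to 4 genes tested each, and 9465 of all 17972 genes tested lie below 0.

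**Figure D2:**
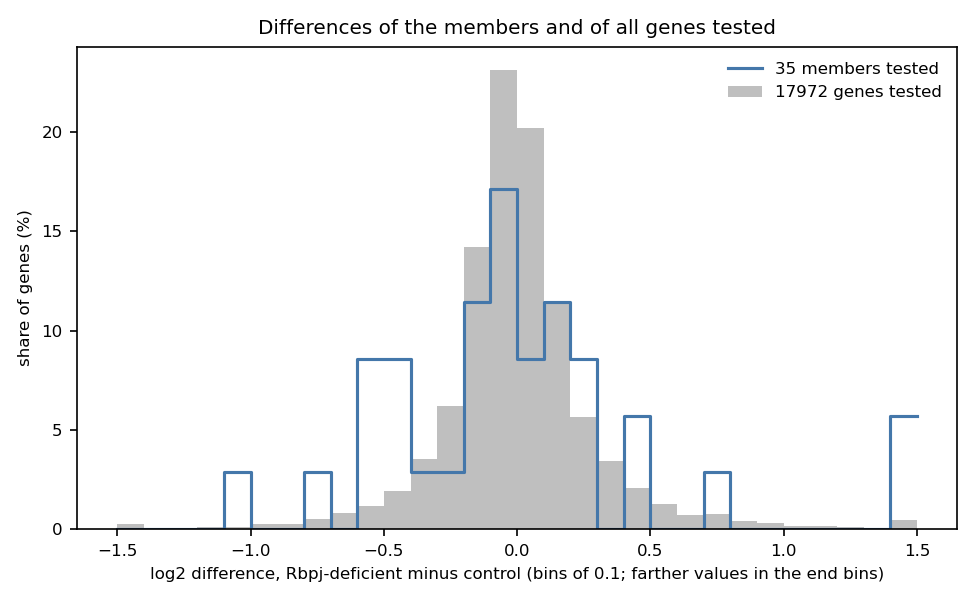
Share of genes (%) in bins of 0.1 of the log2 difference between Rbpj-deficient and control cells, for the 35 members tested (line) and the 17972 genes tested (grey bars). The middle of the members, between their quartiles, runs from -0.31 to 0.11, and that of all genes tested from -0.12 to 0.11.

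Among the ligands Tgfb3 was the member that rose. TGF-beta 3 is 1 of the TGF-beta isoforms and binds the same receptor pair as TGF-beta 1. Its level was -2.81 and -2.91 in control cells, against -1.56 and -1.28 in Rbpj-deficient cells. Both Rbpj-deficient arrays lay above both control arrays by more than a log2 unit. The difference was 1.44 (SE 0.12, limma adjusted p = 0.0379), or 2.72-fold, from -2.86 ± 0.07 to -1.42 ± 0.20 (SD, n = 2). Over 15 alternatives it ran from 1.15 to 1.58, with a limma adjusted p from 0.00468 to 0.260, and 9 of them kept the call.

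Tgfb1, the isoform best known from immune cells, read 3.11 and 3.05 in control and 3.06 and 3.03 in Rbpj-deficient cells. Its arrays overlapped, and the 95% interval of the difference ran from -0.19 to 0.12. Inhba, which encodes the subunit of activin A, read -0.36 and -0.49 in control and 0.61 and -0.05 in Rbpj-deficient cells. Those groups lay apart, and the Rbpj-deficient arrays were the more widely spaced pair. The difference of 0.70 (SE 0.24, limma adjusted p = 0.194) did not pass and was 0.38 with replicate 1 of the Rbpj-deficient cells left out and 1.03 with their replicate 2 left out. The other 7 ligands were not tested. Bmp2, Bmp6, Bmp7, Inhbb and Inha, the alpha subunit of inhibin, were not well above background on any array. Bmp4 was measured on 1 control and 1 Rbpj-deficient array and Tgfb2 on 1 control array.

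**Figure D3:**
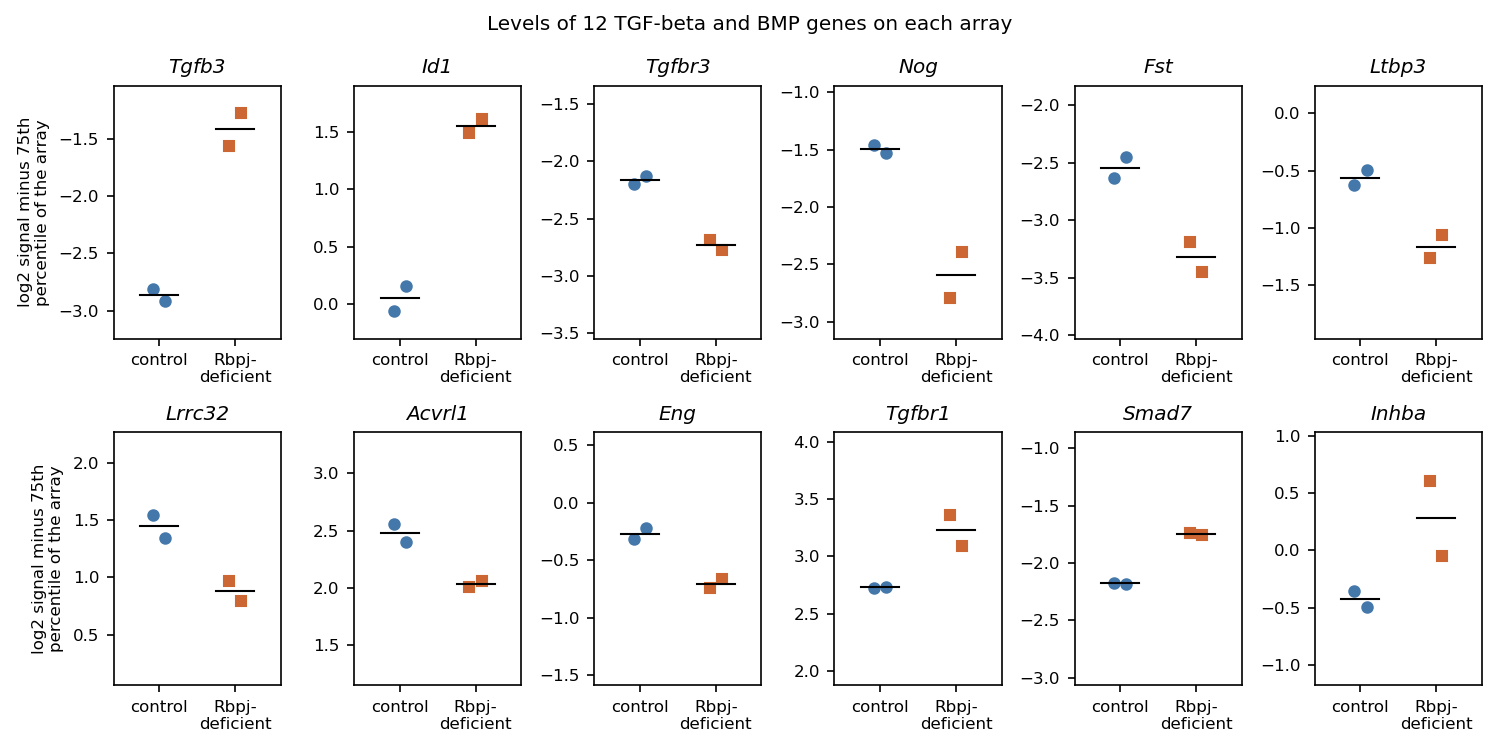
Level on each array (log2 signal minus the 75th percentile of the array) of 12 members chosen among those whose genotypes lie apart, with circles for control and squares for Rbpj-deficient cells, lines for the group means, and the same span of the axis in every panel. The widest gap between arrays of 1 genotype is that of Inhba, from -0.05 to 0.61.

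The receptor kinases did not pass, and the type II receptors overlapped between the genotypes. Tgfbr1, the type I receptor of TGF-beta, read 2.73 and 2.74 in control and 3.36 and 3.09 in Rbpj-deficient cells. The Rbpj-deficient arrays were both higher, with a difference of 0.49 (SE 0.11, limma adjusted p = 0.106), and a dimmer probe for the same gene gave 0.53. Acvrl1, also called ALK1, is a type I receptor for BMP9 and BMP10 and for TGF-beta in endothelium. It read 2.56 and 2.40 in control and 2.01 and 2.06 in Rbpj-deficient cells, a difference of -0.44 (SE 0.08, limma adjusted p = 0.0778). Both of these genes thus lay apart, in opposite directions. Acvr1, a BMP receptor, stood at -0.18, the activin receptor Acvr1b at 0.11 and the BMP receptor Bmpr1a at -0.00, while Bmpr1b was measured on no array. Among the type II receptors, Tgfbr2 (-0.05), Acvr2a (-0.01), Acvr2b (0.05) and Bmpr2 (0.10) overlapped between the groups in each case. For Tgfbr2, the partner of Tgfbr1, the 95% interval ran from -0.24 to 0.14.

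Co-receptors lay lower. Tgfbr3, or betaglycan, presents TGF-beta to its receptors and also binds inhibin. It read -2.19 and -2.13 in control and -2.69 and -2.77 in Rbpj-deficient cells. The groups were separated by several times the gap within either of them. Tgfbr3 fell by 0.57 on the log2 scale (SE 0.06, limma adjusted p = 0.0481), to 67.5% of the control level. This call is close to the threshold. Its limma adjusted p ran from 0.0195 to 0.292 over 15 alternatives, of which 6 kept the call, and the call was lost under median scaling (0.0534), quantile normalisation (0.0501) and with the authors' deposited normalised values (0.0513). Endoglin (Eng), the co-receptor that works with Acvrl1, read -0.32 and -0.22 in control and -0.75 and -0.67 in Rbpj-deficient cells. Its difference of -0.44 (SE 0.07, limma adjusted p = 0.0673) did not pass. Bambi, a decoy receptor without a kinase domain, was measured on no array.

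Latency proteins lay below 0 in all 4 members tested, and none passed. Lrrc32, known as GARP, tethers latent TGF-beta to the cell surface. It read 1.54 and 1.35 in control and 0.97 and 0.79 in Rbpj-deficient cells, a difference of -0.56 (SE 0.11, limma adjusted p = 0.0836). Ltbp3, which binds latent TGF-beta to the matrix, read -0.63 and -0.50 in control and -1.27 and -1.06 in Rbpj-deficient cells. Its difference was -0.60 (SE 0.10, limma adjusted p = 0.0721), and its other probe gave -0.38. For both genes every Rbpj-deficient array lay under every control array. Ltbp4 stood at -0.39 (limma adjusted p = 0.0851) with the groups apart, and Ltbp2, a matrix protein of the same family that does not bind latent TGF-beta, at -0.23 with the groups overlapping. Ltbp2 was -0.04 with replicate 1 of the Rbpj-deficient cells left out, -0.42 with their replicate 2 left out, and -0.09 with normexp. Ltbp1 was measured on no array.

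The secreted antagonists also lay lower without passing. Noggin (Nog), which captures BMPs before they reach their receptors, read -1.46 and -1.53 in control and -2.79 and -2.40 in Rbpj-deficient cells. That is a difference of -1.10 (SE 0.15, limma adjusted p = 0.0605), or 46.8% of the control level. Noggin and the 2 members that rose were the 3 members tested with a difference of at least 2-fold. Over its alternatives the adjusted p of Nog ran from 0.0141 to 0.299, and it passed in 4 of 15. Follistatin (Fst), which binds activins, read -2.63 and -2.45 in control and -3.19 and -3.45 in Rbpj-deficient cells, a difference of -0.77 (SE 0.12, limma adjusted p = 0.0679). Both antagonists were separated between the genotypes. Gremlin (Grem1), another BMP antagonist, was measured on no array.

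Bmp1 is a metalloprotease that cleaves procollagens and the BMP antagonist chordin, not a ligand. Its probes disagreed. The brighter one read 0.17 and 0.35 in control and 0.07 and 0.12 in Rbpj-deficient cells, a difference of -0.17 (limma adjusted p = 0.309). The dimmer one read -1.17 and -1.11 in control and -1.99 and -2.00 in Rbpj-deficient cells. With every probe fitted on its own, that difference was -0.85 (SE 0.06, limma adjusted p over the 22044 probes = 0.0317), in a fit that called 1.73% of probes. Which transcripts of Bmp1 either probe reads was not analysed here. Several probes were tested for 10 members, and they had the same sign in 8 of them. Smad1 and Skil were the exceptions, both with small differences.

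**Figure D4:**
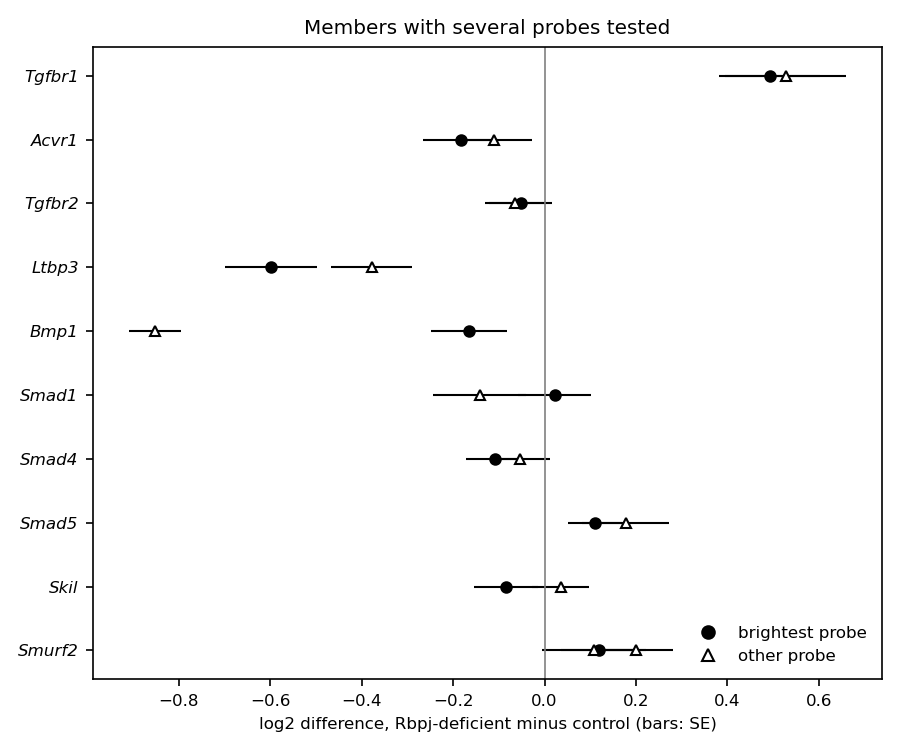
Log2 difference between Rbpj-deficient and control cells, with its SE, for each probe of the 10 members with several probes tested. Circles mark the brightest probe and triangles the others. The probes of Tgfbr1 lie together at 0.49 and 0.53, and those of Bmp1 lie apart at -0.17 and -0.85.

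None of the 6 Smads tested passed, and their differences were small apart from Smad7. Smad7, the inhibitory Smad that blocks the type I receptors and is itself induced by TGF-beta, read -2.17 and -2.19 in control and -1.74 and -1.76 in Rbpj-deficient cells. Its arrays lay close together within each genotype and apart between them. The difference of 0.43 (SE 0.05, limma adjusted p = 0.0546) was just outside the threshold. The receptor-regulated Smads of the TGF-beta branch, Smad2 and Smad3, stood at -0.04 and 0.21, and those of the BMP branch, Smad1 and Smad5, at 0.02 and 0.11. Smad4, the shared partner, stood at -0.11, with a 95% interval from -0.28 to 0.07. Smad6, the inhibitory Smad of the BMP branch, and Smad9 were measured on no array.

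Among the nuclear corepressors Ski stood at 0.25 (limma adjusted p = 0.106), with the groups apart. With normexp it stood at -0.00, so its direction was not kept. Skil, also a corepressor of Smads, stood at -0.08, and Tgif1, a homeodomain corepressor, at 0.02. The ubiquitin ligases Smurf1 and Smurf2, which mark Smads and receptors for degradation, stood at -0.16 and 0.12.

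Targets differed among themselves. Id1, an inhibitor of basic helix-loop-helix factors and a direct target of BMP signalling, read -0.06 and 0.16 in control cells, against 1.49 and 1.61 in Rbpj-deficient cells. No control array came near an Rbpj-deficient one. Id1 rose by 1.50 on the log2 scale (SE 0.10, limma adjusted p = 0.0322), or 2.83-fold, from 0.05 ± 0.16 to 1.55 ± 0.09 (SD, n = 2). Over 15 alternatives the difference of Id1 ran from 1.39 to 1.61, with a limma adjusted p from 0.00279 to 0.260, and 9 of them kept the call. Id3, a relative of Id1 that answers to the same signals, lay on the other side of 0. It read -3.80 and -3.84 in control and -4.31 and -4.15 in Rbpj-deficient cells, a difference of -0.41 (SE 0.08, limma adjusted p = 0.0861), and -0.15 with normexp. Id2, no member but a target in the wider list below, read 4.872 and 4.867 in control and 4.385 and 4.564 in Rbpj-deficient cells. Its difference of -0.39 (SE 0.08, limma adjusted p = 0.0948) did not pass, with the groups apart. Whether the change of Id1 differs from those of Id2 and Id3 was not tested. Tgfbi, a matrix protein named for its induction by TGF-beta, read 6.20 and 6.11 in control and 6.42 and 6.36 in Rbpj-deficient cells, a difference of 0.23 (limma adjusted p = 0.146). Id4 was measured on no array.

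Promoters were read from RefSeq on GRCm38.p6 for 34 of the 49 members, as the 250 bases before each transcript start. Tgfb3, Id1, Tgfbr3, Nog, Fst, Lrrc32, Acvrl1 and Smad7 are among those with no entry. The core letters bound by RBPJ, TGGGAA, searched on both strands, stood in the promoters of 8 of the 34 members and of 24.1% of all 27025 genes with an entry. Of the members tested that hold it, Ltbp3 had the largest difference (-0.60), and its promoter at chr19:5740650-5740899 (plus strand) is shown with the match in capitals, here as the reverse complement TTCCCA, 110 to 105 bases before the start. The letters GGCGCC, a GC-rich element bound by the Smads of the BMP branch and identical on both strands, stood in 11 of the 34 members and in 10.8% of all genes. GC content had a median of 64.2% in the promoters of members and 52.4% in all promoters, and its part in that count was not tested. Among members tested that hold GGCGCC the largest difference was that of Tgfbr1 (0.49), shown from chr4:47352972-47353221 (plus strand) with the match in capitals, 233 to 228 bases before the start. The longer Smad palindrome GTCTAGAC stood in 0 of the 34 and in 0.20% of all genes. These matches describe the letters only.
Ltbp3: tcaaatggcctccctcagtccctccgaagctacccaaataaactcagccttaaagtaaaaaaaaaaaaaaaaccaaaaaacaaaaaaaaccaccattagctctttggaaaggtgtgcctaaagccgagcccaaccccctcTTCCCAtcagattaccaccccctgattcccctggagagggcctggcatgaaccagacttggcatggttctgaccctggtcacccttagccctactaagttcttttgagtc
Tgfbr1: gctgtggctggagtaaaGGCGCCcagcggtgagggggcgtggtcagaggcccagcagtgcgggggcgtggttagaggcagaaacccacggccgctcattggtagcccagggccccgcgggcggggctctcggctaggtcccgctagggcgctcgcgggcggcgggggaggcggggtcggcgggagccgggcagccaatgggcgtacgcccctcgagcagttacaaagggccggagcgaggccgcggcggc

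Other genes of the pathway, 75 from a separate list by role, gave 50 genes tested, of which none rose, none fell and 50 did not pass in limma. Of these, 14 had an unadjusted p under 0.05, against 24.1% of all genes tested. Normexp called 6 of the 50, beside 4.93% of all genes tested, and the variance prior with a trend called 7, beside 8.61%. Their median was -0.02, with 23 above and 27 below 0. Of the 50, 44 were measured on all 4 arrays, and the filter admitted the rest through 1 genotype alone. In each role the gene farthest from 0 is named. Among 6 ligands tested that was Gdf3 (-0.55, limma adjusted p = 0.115), a ligand of the nodal group. Among 3 receptors and co-receptors it was Cd109 (-0.63, limma adjusted p = 0.155), a co-receptor that dampens TGF-beta signalling. Cd109 was measured on 2 control arrays and 1 Rbpj-deficient array, so the filter admitted it through control, where it read higher. The other 2 genes of that role lay above 0, with Tdgf1 at 0.54 (limma adjusted p = 0.0518) and its groups apart. Of 21 intracellular genes Pmepa1, a TGF-beta-induced inhibitor of the pathway, stood at 0.81 (limma adjusted p = 0.111), from -2.13 and -2.45 in control to -1.27 and -1.67. All 6 targets tested lay below 0, with Klf10, a TGF-beta early response gene, the farthest at -0.44 (limma adjusted p = 0.130). The 14 extracellular regulators tested lay 7 above and 7 below 0. Of these Cer1, an antagonist of BMPs and nodal, stood at 1.51 with an SE of 1.73, as 1 control array read -8.11 and the other -3.18. Without control replicate 2, the darker one, it was -0.95. Cer1 was measured on 1 control and 2 Rbpj-deficient arrays, so the filter admitted it through the genotype with the higher mean.

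Markers of other cells were read beside these genes. Of 7 neutrophil markers, all measured on all 4 arrays, 6 lay above 0 and 2 of them, Mpo and Ngp, passed. Elane stood at -0.14 with the groups apart and did not pass. The summed linear signal of the 7, as multiples of the array's 75th percentile, was 21.6 and 24.8 in control and 44.8 and 36.0 in Rbpj-deficient cells. Most of it was the signal of S100a8 and S100a9. All 4 megakaryocyte or platelet markers tested, of 5, lay above 0, and Gp1ba was measured on no array. Of the 4, Gp9 was measured on 0 control and 2 Rbpj-deficient arrays, so the filter admitted it through the genotype where it read higher. Summed signals were 9.39 and 9.40 in control and 11.3 and 15.0 in Rbpj-deficient cells, most of it the signal of Pf4. Of 5 macrophage markers 2 lay above and 3 below 0. Fcgr1 fell by 0.61 and Adgre1 stood at 0.34 without passing, and the summed signal was 185.1 and 185.6 in control and 191.5 and 188.5 in Rbpj-deficient cells. Of 7 mast cell, basophil and eosinophil markers tested 5 lay above 0. Hdc rose by 0.48 and Siglecf fell by 0.63, while Mcpt8 (1.13), Prss34 (0.95) and Cpa3 (0.77) did not pass. That list summed to 5.20 and 5.21 in control and 4.87 and 4.49 in Rbpj-deficient cells. Siglecf was its brightest marker on every array, so the falling sum does not track the 5 markers above 0. Of 3 T, B or natural killer cell markers tested 2 lay above 0. Klrb1c rose by 1.14, and Cd3g (1.40, limma adjusted p = 0.104) did not pass, with the groups apart. The sums were 0.943 and 0.735 in control and 0.890 and 0.953 in Rbpj-deficient cells. Most of that was the signal of Cd3e, which stood at -0.13, so the sum does not track the 2 markers above 0. The part of these cells in the differences of Tgfb3, Id1 and Tgfbr3 was not tested. Stromal cells are known to make follistatin and BMP antagonists. Of their 7 markers Col3a1, Pdgfra, Pdgfrb and Lum were measured on no array. The 2 that were tested, Col1a2 (-0.53) and Dcn (0.43), overlapped between the groups. Dcn was measured on 1 control and 2 Rbpj-deficient arrays, so the filter admitted it through the genotype with the higher mean. Col1a1 was measured on 1 array of each genotype and was not tested. It read -5.249 and -4.724 in control and -6.135 and -5.341 in Rbpj-deficient cells, lower with the groups apart. Col3a1 also read lower with the groups apart, though it was not well above background on any array. The summed signal of that list was 0.114 and 0.162 in control and 0.0785 and 0.150 in Rbpj-deficient cells. Endothelial cells are known for Acvrl1 and Eng, and of their 5 markers Cdh5, Tek and Emcn were measured on no array. Kdr (-0.13) and Pecam1 (0.45) were measured on all 4, and neither passed, though the genotypes lay apart for both. The list summed to 4.78 and 4.37 in control and 4.32 and 4.09 in Rbpj-deficient cells, most of it the signal of Kdr. The part of stromal or endothelial cells in the differences of Fst, Nog, Acvrl1 and Eng was not tested.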

How the data were processed

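RNA of 4 samples was hybridised to 1-colour Agilent mouse arrays on 1 slide, with 150 ng labelled with Cy3 per the labels. The deposited intensity of each spot came from Agilent Feature Extraction 10.7.1.1, per the submitters' processing notes, with background subtracted and trends within the array removed, per the file headers, and with no scaling between arrays. Its deposited flags mark spots that were well above background, saturated or outlying. Outlying spots, 127 to 176 per array, were left out, and 0 were saturated. The authors' deposited table of normalised log2 values was an alternative only, and how it was made is not given in the sources used here. Across 39426 probes its columns tracked the probe-centred log2 scanner signal with Pearson r from 0.99995 to 0.99996, all in the positive direction, and their medians were -0.0339 and 0.0202 for Rbpj-deficient and 0.0528 and -0.0305 for control cells. Whether its scaling used the same percentile is unknown.

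Intensity was taken to log2 and reduced by the array's 75th percentile, spots of a probe were averaged, and the brightest probe of each gene was kept. The comparison of genotypes used lmFit and eBayes of limma 3.58.1 under R 4.3.3, with p-values adjusted by Benjamini-Hochberg; SE values and 95% intervals are those of the moderated fit. Python 3.11.15, numpy 2.4.6, pandas 2.3.3 and matplotlib 3.10.9 did the rest. The fit was also run on data simulated from its own variance prior. Such data follow its model, so that run cannot show whether the calls hold. Of 39429 probes 26055 matched 1 symbol, 0 several and 13374 none in RefSeq annotation of GRCm38.p6; the array annotation is on mm9 per the file headers. Normexp, with an offset of 50, used the median signal of a spot, in place of the planned mean signal, which was not used here. Ctgf of the wider list is Ccn2 in RefSeq, and 2 genes of the wider list, Itgae and Skp2, matched no probe.

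The members and lists were chosen with earlier results of these data known. All members are named, with, in each role of the wider list, the genes past the threshold or else the one farthest from 0. Tdgf1 and Id2 of the wider list, the dimmer probe of Bmp1 and the cell markers singled out were named after their values were seen. Alternatives are given at the end. Replicate numbers were not taken as pairs, as the labels do not say that they mark a shared batch.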

Additional observations from a re-analysis of the deposited data

How the results depend on the processing

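With 1 array left out, an arm of 1 array takes its spread from the other arm. The calls of Tgfb3, Id1, Tgfbr3 and Rbpj then ended, and 0 members, 0 other pathway genes and 0 to 1 of all genes passed, with the median of the members between -0.05 and -0.02. With the replicate number as a block 0 members and 0 of all genes passed (limma adjusted p 0.101 for Tgfb3, 0.0865 for Id1 and 0.123 for Tgfbr3). Same-numbered arrays did not deviate together (r = -0.0472). The labels also do not say that the numbers mark a shared batch, so they were not taken as pairs. With no filter on dim probes 0 members and 0 of all genes passed, and the median of the members was -0.14; it was -0.0669 under median scaling, beside -0.03 as reported. Members, other pathway genes and all genes past the threshold numbered 9, 6 and 886 with normexp and 12, 7 and 1548 with the trended and robust variance prior. They numbered 5, 1 and 470 among genes measured on all 4 arrays, where fewer genes were tested. All other settings left the number of members at 2 or 3 and of all genes between 325 and 441. Every reversal was of a difference that did not pass. With normexp Acvr1b stood at -0.0165, Acvr2a at 0.0086 and Ski at -0.00085. Smad1 stood at -0.0039 under quantile normalisation, -0.0099 under median scaling and -0.0595 as the mean of its probes, Tgif1 at -0.00996 under median scaling, and Bmpr1a at 0.00035 with the authors' deposited values. With 1 array left out the ranges that crossed 0 were -0.28 to 0.28 for Bmpr1a, -0.14 to 0.13 for Acvr2a, -0.0247 to 0.132 for Acvr2b, -0.030 to 0.233 for Bmpr2, -0.0533 to 0.098 for Smad1, -0.055 to 0.0995 for Tgif1 and -0.95 to 3.97 for Cer1. The cause was not tested for these changes unless stated. Fitting every probe on its own was added after seeing the data. A pair of arrays per genotype limits the precision of every value.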
